A study of Mus musculus with 18 samples.

Results

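The secreted Wnt proteins, their Frizzled receptors, the LRP co-receptors, the secreted antagonists, the R-spondins with their Lgr receptors, and the pathway's feedback gene Axin2 were followed across sorted cells of mouse pancreatic tumors and normal pancreas. Members were taken by symbol: every Wnt, Fzd, Sfrp, Dkk (1 to 4), Rspo and Lgr (4 to 6) gene in the table, with Wif1, Frzb, Lrp5, Lrp6 and Axin2. This gave 49 of 23951 genes: 19 Wnt ligands, 10 Frizzled receptors, 2 co-receptors, 10 antagonists, 4 R-spondins, 3 Lgr receptors and Axin2. Choosing by symbol used no measured value.

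Poly(A) RNA of 18 libraries in 5 groups was measured: normal pancreatic fibroblasts (NPF, n = 3), tumor fibroblasts with Saa3 intact (WT_CAF, n = 5) or deleted (KO_CAF, n = 3), and tumor cells with Saa3 intact (WT_tumor, n = 4) or deleted (KO_tumor, n = 3). Saa3 encodes an acute-phase serum amyloid protein. Mice of all groups carried Elas-tTA/tetO-Cre, in which the elastase promoter, active in acinar cells, drives the transactivator that switches on Cre, and the reporter Rosa26+/EYFP. The 4 tumor groups also carried Trp53lox/lox, which the NPF labels do not list, and in the knockout groups the Saa3-/- allele was present in fibroblasts and tumor cells alike. The sources used here do not give age, sex or the markers used for sorting, nor whether the same animals gave both fibroblasts and tumor cells.

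Wnt proteins are lipid-modified signals that mostly act over short distances. A Wnt bound to a Frizzled and to Lrp5 or Lrp6 stabilises beta-catenin, which enters the nucleus and, with TCF/LEF factors, switches on targets such as Axin2; other Wnt and Frizzled pairs signal without beta-catenin. Sfrp proteins, Frzb and Wif1 bind Wnts outside the cell, Dkk1, Dkk2 and Dkk4 act on the LRP co-receptors, and R-spondins bound to Lgr4, Lgr5 or Lgr6 keep Frizzled receptors at the cell surface. In the pancreas the pathway takes part in organ development, and pancreatic tumors can draw on Wnt ligands made by the tumor cells and by their surroundings.

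The promoters of 6 members that stood on different sides of the comparisons below are shown, as the 250 bases before the transcription start (RefSeq, GRCm38.p6, gene strand). Capitals mark the TCF/LEF core motif CTTTGA or its reverse complement TCAAAG. Wnt7a (chr6:91411354-91411603, minus strand) and Lgr6 (chr1:135105277-135105526, minus strand) were high in tumor cells. Wnt11 (chr7:98834862-98835111, plus strand), Fzd1 (chr5:4758217-4758466, minus strand) and Frzb (chr2:80447397-80447646, minus strand) were high in tumor fibroblasts. Axin2 (chr11:108920099-108920348, plus strand) is the standard transcriptional readout of the pathway.
Wnt7a: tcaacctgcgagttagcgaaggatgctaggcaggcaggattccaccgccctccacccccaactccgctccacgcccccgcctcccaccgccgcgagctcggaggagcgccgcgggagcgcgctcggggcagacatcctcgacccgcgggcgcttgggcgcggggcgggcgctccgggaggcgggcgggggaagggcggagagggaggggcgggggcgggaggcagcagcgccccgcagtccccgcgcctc
Lgr6: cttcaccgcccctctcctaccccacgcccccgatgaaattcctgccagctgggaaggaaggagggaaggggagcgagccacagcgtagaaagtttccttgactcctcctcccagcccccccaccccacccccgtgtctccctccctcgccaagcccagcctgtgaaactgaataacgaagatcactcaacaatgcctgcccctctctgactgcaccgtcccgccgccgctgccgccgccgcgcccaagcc
Wnt11: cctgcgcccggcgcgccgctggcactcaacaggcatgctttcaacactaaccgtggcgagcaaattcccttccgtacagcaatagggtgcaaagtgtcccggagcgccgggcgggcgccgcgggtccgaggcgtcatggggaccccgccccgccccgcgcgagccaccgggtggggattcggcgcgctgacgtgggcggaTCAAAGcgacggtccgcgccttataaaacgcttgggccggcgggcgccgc
Fzd1: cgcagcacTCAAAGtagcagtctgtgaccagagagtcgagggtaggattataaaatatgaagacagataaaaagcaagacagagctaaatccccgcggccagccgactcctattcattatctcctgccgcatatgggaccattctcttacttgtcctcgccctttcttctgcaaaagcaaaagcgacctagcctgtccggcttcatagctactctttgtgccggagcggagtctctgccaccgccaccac
Frzb: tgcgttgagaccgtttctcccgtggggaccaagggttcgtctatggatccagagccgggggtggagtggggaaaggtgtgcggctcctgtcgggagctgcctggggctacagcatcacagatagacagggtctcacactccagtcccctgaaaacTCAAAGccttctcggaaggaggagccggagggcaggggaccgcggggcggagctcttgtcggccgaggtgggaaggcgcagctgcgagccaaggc
Axin2: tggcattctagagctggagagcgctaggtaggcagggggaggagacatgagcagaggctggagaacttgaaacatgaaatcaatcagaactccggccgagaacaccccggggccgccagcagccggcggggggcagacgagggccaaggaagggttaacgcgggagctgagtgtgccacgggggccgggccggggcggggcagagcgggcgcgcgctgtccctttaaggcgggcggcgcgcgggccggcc
Promoter windows were found for 32 members (35 windows), and 5 windows held the motif, those of Wnt5b, Wnt11, Fzd1, Frzb and Dkk1. Of all 32851 windows of the same length 13.8% held it. The windows shown for Wnt11, Fzd1 and Frzb have 1 match each, and those of Wnt7a, Lgr6 and Axin2 have none. Wnt11 also has a window at chr7:98838595-98838844, not shown, with no match. The windows of Wnt2, Wnt4, Wnt9a, Sfrp2 and Rspo1, also high in tumor fibroblasts, have none either. The windows shown therefore do not stand for all members of a side. A match here is a run of letters and not a shown binding site. In base composition, the median member window held 22 CpG dinucleotides and 66.8% G+C, against 6 and 52.4% over all windows. Of the 35 member windows, 29 held 10 or more CpG. The windows of Fzd1 (51.2% G+C) and Wnt8b (48.4%) lay below the median G+C of all windows.

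Values are FPKM, fragment counts scaled for transcript length and library depth, so levels of different genes can be set side by side within a library. The number of fragments behind them is unknown. Saa3 stood at 0 to 1.85 FPKM in the 6 knockout libraries and at 2.75 to 4278 in the other 12. The library labelled WT_CAF 1 went against its label. Its 9 fibroblast markers summed to 642 FPKM (9093 to 18904 in WT_CAF 2 to 5). Its 7 epithelial markers summed to 626 (29.4 to 336) and were split. Krt8, Krt18, Krt19 and Cdh1 were the highest of the WT_CAF libraries (252, 245, 119 and 10.1 FPKM). Epcam, Krt7 and Cldn4 were the lowest of them (0.220, 0.472 and 0.234 FPKM). Across the 37 tested members, WT_CAF 1 ranked more like the median tumor cell library (rho = 0.719) than like the median fibroblast library (rho = 0.262). Among the tumor cells, WT_tumor 3 held a fibroblast marker sum of 527 FPKM (62.3 to 93.6 in the other WT_tumor). WT_tumor 4 was low in Epcam at 2.60 FPKM (129 to 549 in the other WT_tumor) and in Cldn4 at 1.66 (14.4 to 536). It kept other epithelial markers, with Krt8 at 1188 FPKM, Krt18 at 1109 and Krt19 at 438. Its 7 epithelial markers summed to 2919 FPKM (4444 to 6284 in the other WT_tumor). The description labels carry no index sequence for all 3 NPF, WT_CAF 1 and WT_CAF 2, a 6-base index for 8 libraries and a 16-base index for 5 (WT_CAF 4 and 5, KO_CAF 3, WT_tumor 1 and KO_tumor 2), and this index form was a term of the fit.

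A filter of 1 FPKM or more in at least 3 libraries kept 13369 genes and 37 of the 49 members. The other 12 were Wnt1, Wnt3, Wnt3a, Wnt8a, Wnt8b, Wnt9b, Fzd9, Fzd10, Dkk1, Dkk4, Rspo2 and Rspo4. None of them passed 1.69 FPKM (Fzd10 in KO_tumor 1), and Dkk4 was listed at 0 in every library. Differences below are from limma on log2(FPKM + 1), as log2 difference ± standard error, with p-values adjusted over all 13369 genes; a gene was called at an adjusted p under 0.05. Of the 37 tested members, 26 were called in at least 1 of the 6 comparisons, a share that was not counted over all genes.

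**Figure D1:**
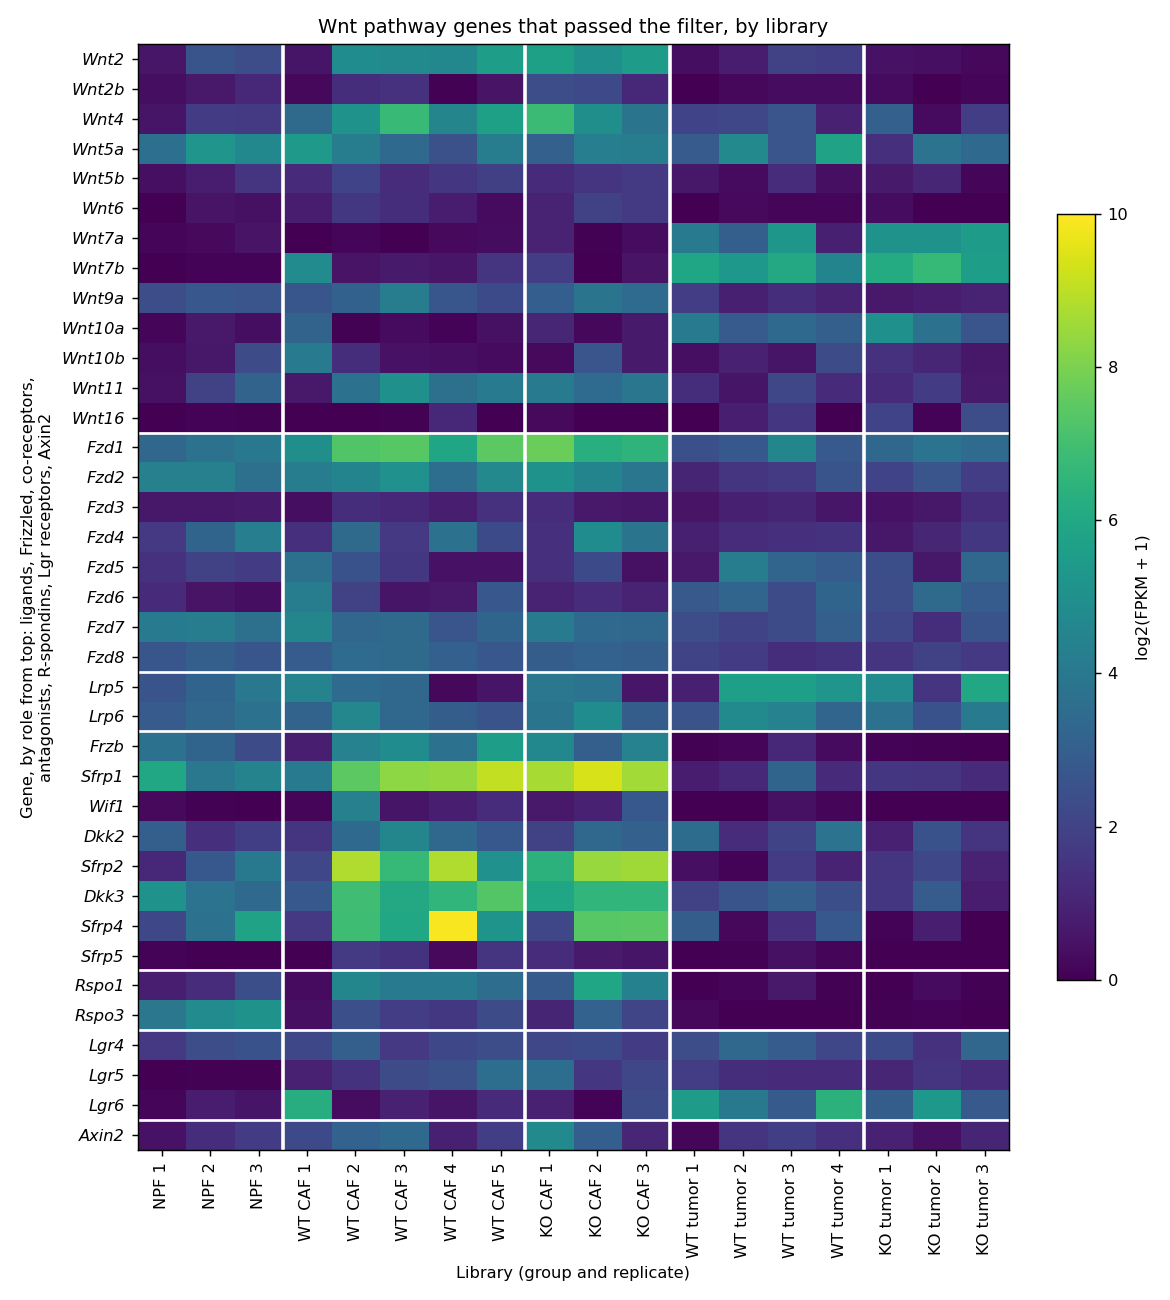
Levels of the 37 Wnt pathway genes that passed the filter (rows, by role) in each of the 18 libraries (columns, by group), as log2(FPKM + 1). Antagonists such as Sfrp1 (179 to 668 FPKM) are bright in the tumor fibroblasts other than WT_CAF 1, and Wnt7b (21.9 to 104 FPKM) is raised in all 7 tumor cell libraries.

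Tumor cells and tumor fibroblasts carried different sets of Wnt pathway genes. In tumor cells Wnt7a, Wnt7b and Wnt10a were high, with the receptor Fzd6 and the co-receptor Lrp5. In tumor fibroblasts Wnt2, Wnt4, Wnt9a and Wnt11 were high, with Fzd1, Fzd2 and Fzd8, 5 secreted antagonists, Rspo1, Rspo3 and Axin2. For Fzd6, Lrp5 and Axin2 this rests on the index term, without which their calls were lost in both comparisons. With Saa3 intact (WT_tumor against WT_CAF), 6 of 37 tested members were called higher and 16 lower in tumor cells, where 9.05% and 12.5% of all genes tested were called (21.5% in either direction). Without Saa3 (KO_tumor against KO_CAF) 6 were called higher and 18 lower, against 13.0% and 15.4% of all genes (28.4% in either direction). The median difference of the members was -0.88 and -1.41, and that of all genes 0.07 and 0.05. These comparisons share no library, though they share the index term and the spread of the fit. In both, 20 members were called the same way, and the share of all genes so called was not counted. With the index term, the sizes with Saa3 intact rest on WT_CAF 3 to 5, since no tumor cell library shares the index form of WT_CAF 1 and WT_CAF 2. Leaving out WT_CAF 1 therefore left each of these differences as it was and changed only their spread, with all 22 calls made again and 2 more (Fzd7 and Sfrp5), where 26.6% of all genes were called. Marker RNA of other cell types also varied among these libraries. The 7 acinar markers summed to 14302, 6134, 1824 and 13.1 FPKM in WT_tumor and to 8.34, 7668 and 18030 in KO_tumor. In tumor fibroblasts they summed to 13.0 to 554. The 6 pericyte markers summed to 1.65 to 75.5 in tumor cells against 49.8 to 97.1 in tumor fibroblasts other than WT_CAF 1 (2.59). These fibroblast sums were mostly Kcnj8 (25.8 to 70.4 FPKM) and Abcc9 (10.7 to 51.2). The tumor cell top of 75.5 was nearly all Rgs5 (74.1 in WT_tumor 2). The 5 mesothelial markers summed to 98.3 to 463 FPKM in tumor cells and 20.1 to 179 in tumor fibroblasts. In tumor cells that sum was nearly all Msln (98.1 to 460 FPKM). Wt1 went the other way, at 0.0279 to 2.81 FPKM against 1.21 to 69.8 in tumor fibroblasts. Upk3b, Lrrn4 and Upk1b did not pass 1.97 FPKM in tumor cells and reached 15.5, 5.74 and 73.0 in tumor fibroblasts. With Saa3 intact, 2 of 6 pericyte, 4 of 5 mesothelial, 1 of 6 macrophage and 1 of 2 endothelial markers tested were called. Without Saa3 these counts were 2, 2, 1 and 0. The part of acinar, pericyte, mesothelial, macrophage and endothelial cells in the differences was not tested. In bulk samples a smaller share of cells that make a transcript and less of it per cell cannot be told apart.

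**Figure D2:**
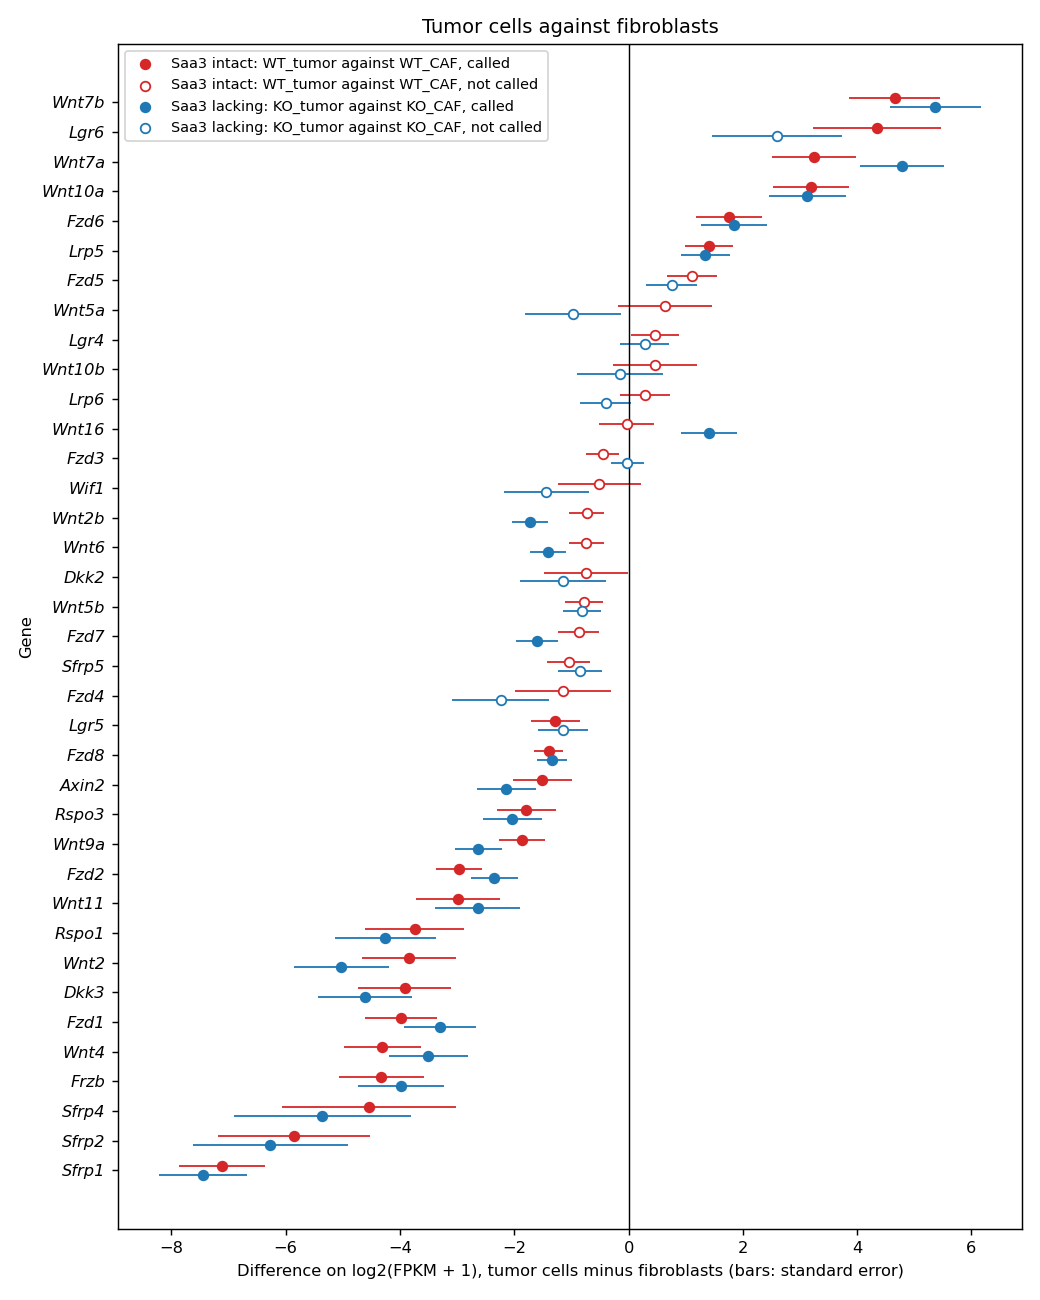
Difference between tumor cells and tumor fibroblasts for each tested gene, on the log2(FPKM + 1) scale with standard errors, with Saa3 intact (red) and deleted (blue); filled points were called at an adjusted p under 0.05. Wnt7b lies farthest to the right (4.65 and 5.37) and Sfrp1 farthest to the left (-7.12 and -7.45).

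Wnt7b, best known for signalling through beta-catenin, had the largest difference among the ligands in both comparisons. It stood at 59.9, 39.5, 64.1 and 21.9 FPKM in WT_tumor and at 70.9, 104 and 47.5 in KO_tumor. In fibroblasts it stood at 27.0, 0.443, 0.635, 0.526 and 1.90 FPKM in WT_CAF, at 2.52, 0.0182 and 0.442 in KO_CAF and at 0.0274 to 0.0770 in NPF. Every tumor cell library lay above every fibroblast library other than WT_CAF 1, which reached the range of the tumor cells. The difference was 4.65 ± 0.79 (adjusted p = 0.0015) with Saa3 intact and 5.37 ± 0.80 (adjusted p = 5.9e-04) without it. Such a separation of all 7 tumor cell libraries from the 10 fibroblast libraries other than WT_CAF 1 was seen for 11 of the 37 members and for 14.5% of all genes tested.

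Wnt7a, the closest relative of Wnt7b, was more uneven among the tumor cells. Its levels were 16.7, 7.18, 38.3 and 0.862 FPKM in WT_tumor and 34.1, 32.9 and 44.0 in KO_tumor, with all 11 fibroblast libraries at 0.0186 to 0.938. WT_tumor 4, low in Epcam though high in Krt8 and Krt18, was the one tumor cell library within the fibroblast range. The difference was 3.24 ± 0.73 (adjusted p = 0.0070) with Saa3 intact and 4.79 ± 0.74 (adjusted p = 7.1e-04) without it. With WT_CAF 3 left out, the first of these calls was lost (adjusted p = 0.051). Wnt10a, a ligand of skin and tooth development, stood at 16.6, 6.24, 9.72 and 7.06 FPKM in WT_tumor and at 31.8, 12.6 and 5.20 in KO_tumor, against 0.0452 to 1.13 in fibroblasts and 8.06 in WT_CAF 1. Its difference was 3.19 ± 0.67 (adjusted p = 0.0047) and 3.13 ± 0.68 (adjusted p = 0.0046), so that both comparisons called it.

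Wnt2 and Wnt4 were the leading ligands of the tumor fibroblasts. Wnt2, a ligand of lung and vascular development, stood at 0.489, 28.3, 26.0, 24.2 and 46.4 FPKM in WT_CAF and at 50.8, 31.5 and 43.9 in KO_CAF. Tumor cells held 0.171 to 2.80 FPKM, below every tumor fibroblast library but WT_CAF 1. The difference was -3.84 ± 0.82 (adjusted p = 0.0053) with Saa3 intact and -5.03 ± 0.83 (adjusted p = 9.7e-04) without it. Wnt4, which acts in kidney and gonad development, stood at 9.91, 33.8, 106, 22.6 and 50.2 FPKM in WT_CAF and at 113, 30.7 and 13.6 in KO_CAF. Tumor cells held 3.05, 3.43, 5.16 and 0.888 FPKM of it in WT_tumor and 7.43, 0.227 and 2.50 in KO_tumor, and the groups did not overlap in either comparison. It was lower in tumor cells by 4.31 ± 0.67 (adjusted p = 0.0010) and 3.50 ± 0.68 (adjusted p = 0.0025).

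Wnt11, which signals mainly without beta-catenin, stood at 0.589, 12.3, 31.4, 12 and 16.4 FPKM in WT_CAF, at 16.5, 10.4 and 14.3 in KO_CAF and at 0.493 to 3.34 in tumor cells. WT_CAF 1 again lay within the tumor cell range. The difference was -2.99 ± 0.74 (adjusted p = 0.011) and -2.64 ± 0.75 (adjusted p = 0.018), the second lost in 3 of the 18 fits that left out 1 library. Wnt9a, a ligand of joint development, was present in all fibroblasts at 3.73 to 17.3 FPKM, WT_CAF 1 included, and in tumor cells at 0.593 to 2.53. It differed by -1.87 ± 0.41 (adjusted p = 0.0059) and -2.63 ± 0.41 (adjusted p = 7.5e-04), with no overlap between tumor cells and fibroblasts. With WT_CAF 3 left out, the calls with Saa3 intact of both Wnt11 and Wnt9a were lost (adjusted p = 0.12 and 0.088).

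Another 3 low ligands were called only in the comparison without Saa3, and for none was the difference between the comparisons called. Wnt2b, a close relative of Wnt2, stood at 4.12, 3.56 and 1.19 FPKM in KO_CAF against 0.0205 to 0.236 in KO_tumor (-1.73 ± 0.32, adjusted p = 0.0017), and at 0.166, 1.51, 1.72, 0.0506 and 0.447 in WT_CAF and 0.0157 to 0.275 in WT_tumor (-0.73 ± 0.31, adjusted p = 0.10). Wnt6, whose gene is the neighbour of Wnt10a, stood at 0.933, 2.84 and 2.23 FPKM in KO_CAF against 0 to 0.268 in KO_tumor (-1.41 ± 0.31, adjusted p = 0.0053), and at 0.230 to 2.09 in WT_CAF and 0 to 0.184 in WT_tumor (-0.74 ± 0.31, adjusted p = 0.10). Wnt16 went the other way, at 3.00, 0.0638 and 4.13 FPKM in KO_tumor and 0 to 0.179 in KO_CAF (1.40 ± 0.49, adjusted p = 0.044). Its KO_tumor libraries parted into 2 with a 6-base index and 1 near 0 with a 16-base index, and its call was lost without the index term (adjusted p = 0.058) and in 11 of the 18 fits that left out 1 library. The test of the knockout effect in tumor cells minus that in fibroblasts gave -1.0 ± 0.44 for Wnt2b, -0.67 ± 0.44 for Wnt6 and 1.44 ± 0.68 for Wnt16, each with an adjusted p of 1.0.

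Wnt5a, which mostly signals without beta-catenin, was shared by the cell types. It stood at 11.7, 36.0 and 24.5 FPKM in NPF, at 40.1, 17.7, 9.76, 4.51 and 17.5 in WT_CAF and at 7.46, 18.2 and 17.1 in KO_CAF. Tumor cells held 6.29, 24.8, 5.18 and 52.8 FPKM in WT_tumor and 1.59, 13.2 and 9.56 in KO_tumor, so that the highest and the lowest of the 18 libraries were both tumor cells. Its differences of 0.63 ± 0.83 and -0.98 ± 0.84 were not called. Of the other tested ligands, Wnt5b reached 3.06 FPKM at most, and Wnt10b stood at 17 FPKM in WT_CAF 1 and at 0.201 to 5.15 elsewhere; neither was called.

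As shares of the summed ligand FPKM, the leading ligand differed between NPF, tumor fibroblasts and tumor cells, except in WT_CAF 1 and WT_tumor 4. Wnt5a was the top ligand of all 3 NPF libraries (46.9% to 65.1%). Wnt4 or Wnt2 led in WT_CAF 2 to 5 and in KO_CAF, with 26.6% to 54.8%, while WT_CAF 1 was led by Wnt5a with 36.1%. Wnt7b led in 6 of the 7 tumor cell libraries with 41.1% to 61.6%, and WT_tumor 4 was led by Wnt5a with 56.4%. Wnt7a, Wnt7b and Wnt10a together made 31.8% to 88.8% of the ligand FPKM of tumor cells, 0.192% to 2.22% of that of fibroblasts other than WT_CAF 1, and 31.6% in WT_CAF 1. These shares set genes against each other within a library, and no test was made on them.

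**Figure D3:**
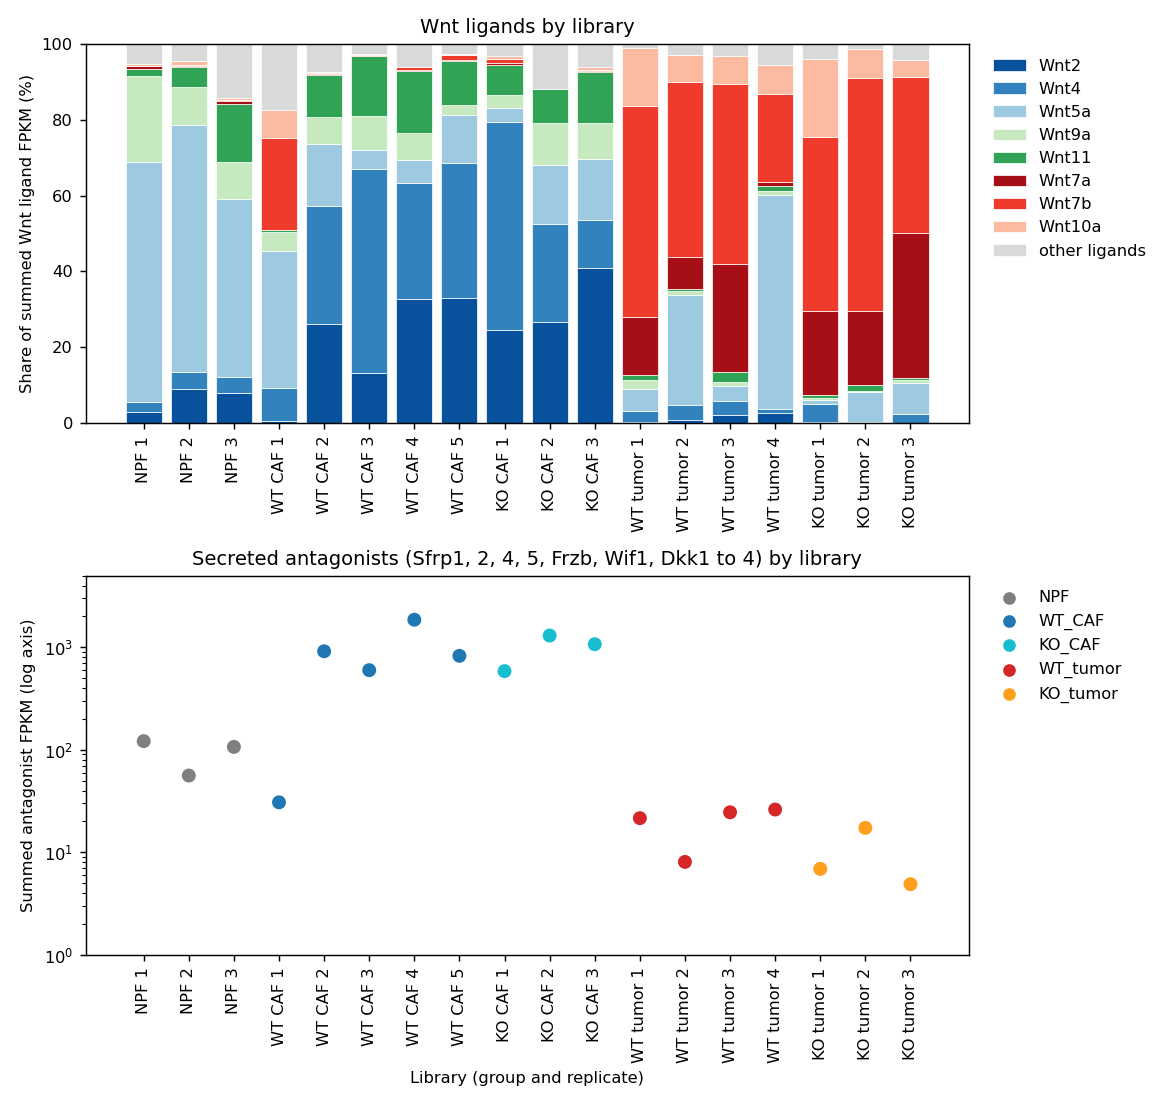
Top, share of the summed FPKM of all Wnt ligands held by each of 8 ligands in each library (percent); bottom, summed FPKM of the 10 secreted antagonists in each library on a log axis. Blue and green fibroblast ligands give way to red Wnt7a, Wnt7b and Wnt10a in tumor cells, and the antagonist sum lies at 585 to 1859 FPKM in tumor fibroblasts other than WT_CAF 1 (30.7) and at 4.89 to 26.1 in tumor cells.

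Fzd1 was the leading Frizzled of the tumor fibroblasts. It stood at 30.7, 153, 169, 59.9 and 177 FPKM in WT_CAF and at 213, 77.1 and 90.7 in KO_CAF, against 4.43, 5.75, 22.8 and 5.87 in WT_tumor and 9.16, 13.1 and 10.1 in KO_tumor. No tumor cell library reached a tumor fibroblast library, and WT_tumor 3, the highest tumor cell library, is also the one with the most fibroblast marker RNA, whose part in its value was not tested. The difference was -3.98 ± 0.62 (adjusted p = 0.0010) with Saa3 intact and -3.30 ± 0.63 (adjusted p = 0.0023) without it. Fzd1 made 51.3% to 77.7% of the summed Frizzled FPKM in WT_CAF 2 to 5 and KO_CAF and 28.2% in WT_CAF 1.

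Fzd2, like Fzd1 a receptor of the mesenchyme, stood at 17.7, 21.7, 32.1, 11.3 and 25 FPKM in WT_CAF and 33.3, 21.8 and 14.1 in KO_CAF, and at 1.03 to 5.24 in tumor cells. All 11 fibroblast libraries lay above all 7 tumor cell libraries, and the differences were -2.97 ± 0.40 (adjusted p = 5.5e-04) and -2.35 ± 0.41 (adjusted p = 0.0013). Fzd8 followed the same order at lower levels, 5.38 to 10.4 FPKM in fibroblasts and 1.45 to 3.10 in tumor cells (-1.40 ± 0.26, adjusted p = 0.0022, and -1.34 ± 0.26, adjusted p = 0.0024). For Fzd7 the difference was called only without Saa3 (-1.61 ± 0.36, adjusted p = 0.0057, against -0.88 ± 0.36, adjusted p = 0.093, with Saa3 intact), and the difference between the comparisons was -0.73 ± 0.51 (adjusted p = 1.0). Fzd7 stood at 15.9, 9.66 and 9.32 FPKM in KO_CAF, at 3.40, 1.5 and 5.0 in KO_tumor, at 22.9, 8.83, 9.86, 5.17 and 8.25 in WT_CAF and at 4.10, 3.16, 3.83 and 7.08 in WT_tumor.

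Fzd6 was the only Frizzled called higher in tumor cells. It stood at 5.94, 8.52, 4.06 and 8.33 FPKM in WT_tumor and 4.09, 9.97 and 6.59 in KO_tumor, against 17.4, 2.81, 0.463, 0.614 and 5.63 in WT_CAF and 0.915, 1.40 and 1.0 in KO_CAF. The highest of all 18 values was that of WT_CAF 1, WT_CAF 5 also lay within the tumor cell range, and the KO_CAF libraries were below all KO_tumor libraries. The difference was 1.75 ± 0.57 (adjusted p = 0.043) and 1.84 ± 0.58 (adjusted p = 0.031). Without the index term the differences were 0.88 ± 0.57 (adjusted p = 0.29) and 1.84 ± 0.69 (adjusted p = 0.066), so both calls were lost. With the term kept, the calls were lost in 12 and 5 of the 18 fits that left out 1 library. Fzd4, known from retinal vessels, stood at 1.55, 9.93, 2.17, 12.5 and 3.81 FPKM in WT_CAF, 1.62, 27.9 and 13.4 in KO_CAF, 0.860, 1.43, 1.63 and 1.78 in WT_tumor and 0.576, 1.11 and 2.10 in KO_tumor (-1.15 ± 0.84, adjusted p = 0.34, and -2.24 ± 0.85, adjusted p = 0.062) and was not called. Fzd5, at 11.8, 4.79, 2.09, 0.389 and 0.417 FPKM in WT_CAF, 1.56, 3.74 and 0.369 in KO_CAF, 0.624, 17.5, 8.62 and 6.43 in WT_tumor and 4.22, 0.568 and 8.73 in KO_tumor, was lowest in the libraries with a 16-base index in each group. Fzd3 did not pass 1.68 FPKM in any library, and neither of them was called in these comparisons.

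The co-receptor Lrp5 was called higher in tumor cells in both comparisons (1.41 ± 0.42, adjusted p = 0.030, and 1.34 ± 0.43, adjusted p = 0.032). Its levels were 0.821, 49.6, 48.7 and 36.3 FPKM in WT_tumor, 27.4, 1.95 and 62.3 in KO_tumor, 21.4, 10.3, 9.31, 0.169 and 0.494 in WT_CAF and 14.4, 13.0 and 0.506 in KO_CAF. The calls were lost in 4 and 5 of the 18 fits that left out 1 library. In each of the 4 groups the lowest values belong to the libraries with a 16-base index, and without the index term neither difference was called (1.91 ± 1.18, adjusted p = 0.27, and 1.34 ± 1.44, adjusted p = 0.55). Within the 6-base libraries the differences were 2.14 ± 0.47 and 1.53 ± 0.40, and within the 16-base libraries 0.46 ± 0.26 and 0.97 ± 0.30. These are given with no call, since the first rests on 1 WT_CAF library and the 16-base values on 1 tumor cell library each, with a spread from WT_CAF 4 and WT_CAF 5 alone. Lrp6, which with Lrp5 forms the pair of co-receptors, stood at 8.15, 24.0, 9.07, 6.64 and 4.92 FPKM in WT_CAF, 13.6, 27.9 and 6.62 in KO_CAF, 4.94, 26.2, 20.3 and 8.61 in WT_tumor and 12.7, 4.81 and 16.6 in KO_tumor. The cell types overlapped, and it was not called.

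The highest levels of the family were those of the secreted antagonists Sfrp4, Sfrp1 and Sfrp2 in tumor fibroblasts. Sfrp1, which binds Wnts outside the cell, stood at 16.7, 179, 314, 338 and 543 FPKM in WT_CAF and 410.2, 668 and 386 in KO_CAF. Tumor cells held 0.744, 1.18, 8.25 and 1.35 FPKM in WT_tumor and 2.02, 1.82 and 1.35 in KO_tumor, the highest again in WT_tumor 3. All fibroblast libraries lay above all tumor cell libraries, and Sfrp1 had the largest difference of the family, -7.12 ± 0.76 (adjusted p = 1.8e-04) with Saa3 intact and -7.45 ± 0.77 (adjusted p = 7.9e-05) without it.

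Sfrp2 stood at 3.38, 444, 102, 446 and 32.3 FPKM in WT_CAF, 84.5, 351 and 381 in KO_CAF and 0.0734 to 3.55 in tumor cells. WT_CAF 1 was below the highest tumor cell library and the other tumor fibroblasts were far above it. The difference was -5.86 ± 1.34 (adjusted p = 0.0076) and -6.27 ± 1.36 (adjusted p = 0.0047), and the call with Saa3 intact was lost with WT_CAF 3 left out (adjusted p = 0.057). Sfrp4 varied widely among the fibroblasts, at 2.14, 117, 63.3, 957 and 35.4 FPKM in WT_CAF and 3.37, 169.7 and 174 in KO_CAF, with 6.68, 0.165, 1.54 and 5.74 in WT_tumor and 0.0654, 0.769 and 0 in KO_tumor. WT_CAF 1 lay within the range of WT_tumor, and KO_CAF 1, the lowest KO_CAF library, lay above all KO_tumor. Its differences of -4.54 ± 1.52 (adjusted p = 0.047) and -5.36 ± 1.54 (adjusted p = 0.020) were called. The first call was lost in 10 of the 18 fits that left out 1 library and the second in 3.

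Frzb, also known as Sfrp3, stood at 0.813, 20.6, 27.7, 12.4 and 46.5 FPKM in WT_CAF, 24.3, 7.22 and 20.7 in KO_CAF and 0.0187 to 1.23 in tumor cells (-4.33 ± 0.74, adjusted p = 0.0016, and -3.98 ± 0.76, adjusted p = 0.0021). Dkk3, a relative of the Dickkopf inhibitors for which binding to the LRP co-receptors is not established, stood at 5.68, 123, 65.2, 95.1 and 159 FPKM in WT_CAF and 57.8, 95.9 and 95.8 in KO_CAF. Tumor cells held 0.682 to 7.28 FPKM of Dkk3, and the differences were -3.92 ± 0.81 (adjusted p = 0.0045) and -4.62 ± 0.82 (adjusted p = 0.0015). For both genes WT_CAF 1 was the lowest tumor fibroblast library and lay within the tumor cell range.

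Dkk2, an inhibitor at the LRP co-receptors, overlapped between the cell types. It stood at 1.91, 9.56, 23.1, 9.27 and 5.75 FPKM in WT_CAF, 2.91, 9.37 and 7.46 in KO_CAF, 10.7, 1.44, 3.10 and 12.9 in WT_tumor and 0.903, 4.68 and 1.91 in KO_tumor (-0.75 ± 0.74, adjusted p = 0.48, and -1.15 ± 0.75, adjusted p = 0.26). Wif1 and Sfrp5 were not called either. Wif1 reached 19.6 FPKM in WT_CAF 2 and 5.74 in KO_CAF 3 and stayed at 1.39 or less elsewhere, and Sfrp5 did not pass 2.27 FPKM.

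Both tested R-spondins were higher in the fibroblasts. Rspo1 stood at 0.232, 22.9, 16, 17 and 11.1 FPKM in WT_CAF and 6.12, 58.7 and 20.1 in KO_CAF, and at 0.0116 to 0.587 in tumor cells. Apart from WT_CAF 1, every tumor fibroblast library was above every tumor cell library. The difference was -3.75 ± 0.86 (adjusted p = 0.0080) and -4.26 ± 0.88 (adjusted p = 0.0034), the first lost with WT_CAF 3 left out (adjusted p = 0.059). Rspo3 stood at 0.342, 4.37, 2.51, 2.06 and 3.93 FPKM in WT_CAF, 1.07, 7.79 and 3.26 in KO_CAF and 0 to 0.174 in tumor cells, with no overlap. It was lower in tumor cells by 1.79 ± 0.51 (adjusted p = 0.023) and 2.03 ± 0.52 (adjusted p = 0.011), and these calls were lost in 3 and 1 of the fits that left out 1 library.

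The 3 receptors of the R-spondins differed from each other. Lgr6, a marker of stem cells in skin, stood at 44.3, 15.6, 6.21 and 84.1 FPKM in WT_tumor and 6.69, 38.9 and 6.02 in KO_tumor, against 73.9, 0.261, 0.874, 0.498 and 1.32 in WT_CAF and 0.867, 0.0566 and 3.93 in KO_CAF. Every tumor cell library exceeded every fibroblast library other than WT_CAF 1, which was the second highest of all 18. The difference was called with Saa3 intact (4.35 ± 1.12, adjusted p = 0.014) and not without it (2.60 ± 1.14, adjusted p = 0.10), and the difference between these, -1.75 ± 1.60, was not called (adjusted p = 1.0). Without the index term the call with Saa3 intact was lost (2.85 ± 1.04, adjusted p = 0.063).

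Lgr5, the intestinal stem cell marker and a Wnt target itself, stood at 0.875, 1.79, 3.93, 4.58 and 11.2 FPKM in WT_CAF, 11.3, 2.02 and 3.33 in KO_CAF, 2.49, 1.46, 1.34 and 1.36 in WT_tumor and 1.12, 1.91 and 1.39 in KO_tumor. WT_CAF and WT_tumor overlapped, while the KO_CAF libraries were above the KO_tumor libraries. Its difference was -1.28 ± 0.43 (adjusted p = 0.047) and -1.15 ± 0.43 (adjusted p = 0.062). The first of these was called but was lost without the index term (adjusted p = 0.25) and in 14 of the 18 fits that left out 1 library. Lgr4, the broadly expressed member, stood at 3.48, 7.15, 2.17, 3.55 and 4.10 FPKM in WT_CAF, 3.38, 3.69 and 2.40 in KO_CAF, 4.19, 9.0, 6.61 and 3.43 in WT_tumor and 3.76, 1.69 and 8.86 in KO_tumor. It stayed between 1.69 and 9.0 FPKM in all 18 libraries and was called in no comparison.

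Axin2, which limits beta-catenin and is induced by it, stood at 3.66, 7.87, 9.64, 0.822 and 2.55 FPKM in WT_CAF and 25.9, 6.92 and 1.09 in KO_CAF, against 0.107, 1.95, 2.59 and 1.65 in WT_tumor and 0.909, 0.343 and 1.04 in KO_tumor. The highest tumor cell library was at 2.59 FPKM, within the range of WT_CAF, while the 3 KO_CAF libraries were above the 3 KO_tumor libraries. The difference was -1.51 ± 0.51 (adjusted p = 0.0496) with Saa3 intact and -2.14 ± 0.52 (adjusted p = 0.0085) without it. Without the index term neither was called (-1.06 ± 0.63, adjusted p = 0.26, and -2.14 ± 0.77, adjusted p = 0.057), and the first was lost in 11 of the 18 fits that left out 1 library.

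Of the 22 calls with Saa3 intact, 11 were made in every one of the 18 fits that left out 1 library: Wnt2, Wnt4, Wnt7b, Wnt10a, Fzd1, Fzd2, Fzd8, Frzb, Sfrp1, Dkk3 and Lgr6. Of the 24 calls without Saa3, 18 were made in every one. How often the calls of all genes held in this way was not counted, so these numbers describe the members alone. Levels did not overlap between WT_tumor and WT_CAF for 10 of the 37 members (12.7% of all genes), or between KO_tumor and KO_CAF for 27 (42.0%). All 22 and all 24 differences kept their sign within the 6-base and within the 16-base libraries, which is a description, since the calls had used the same libraries. The 6-base libraries hold 1 WT_CAF library (WT_CAF 3). The 5 libraries with a 16-base index leave 1 residual degree of freedom and no gene was called within them, so calls within an index form are not read.

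Tumor fibroblasts were next set against fibroblasts of normal pancreas (WT_CAF against NPF). Rspo3 was the one member called, and it was lower in tumor fibroblasts, while 11 of the 37 members and 16.9% of all genes had an unadjusted p under 0.05. Of all genes tested 0.95% were called, 0.277% higher and 0.673% lower. The median difference of the members was 0.72 and that of all genes -0.01. All NPF libraries lack an index sequence, so with the index term the sizes rest on WT_CAF 1 and WT_CAF 2 against the 3 NPF, and WT_CAF 1 is the library that went against its label. Values are therefore also given for WT_CAF 2 to 5 against NPF with no index term, where the index form and the group cannot be told apart for WT_CAF 3 to 5. This comparison shares the WT_CAF libraries with that of tumor cells against fibroblasts with Saa3 intact. Marker RNA moved with it: acinar markers summed to 889 to 35926 FPKM in NPF and 24.1 to 554 in WT_CAF. Fibroblast markers summed to 3129 to 7617 in NPF and 9093 to 18904 in WT_CAF 2 to 5. Pericyte markers summed to 4.14 to 21.8 in NPF and 49.8 to 90.6 in WT_CAF 2 to 5. That rise lay in Kcnj8 (0.309 to 1.49 FPKM in NPF, 25.8 to 70.4 in WT_CAF 2 to 5) and Abcc9 (0.267 to 2.41 and 10.7 to 24.7). Rgs5, Cspg4, Mcam and Notch3 overlapped between these groups. The part of these markers in the differences was not tested.

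Rspo3 held 14.4, 27.3 and 33.0 FPKM in NPF against 0.342, 4.37, 2.51, 2.06 and 3.93 in WT_CAF. All 5 tumor fibroblast libraries lay below all 3 normal ones. The difference was -3.19 ± 0.58 (adjusted p = 0.018). With WT_CAF 1 left out, which leaves WT_CAF 2 alone to set against NPF, it was -2.2 ± 0.60 (adjusted p = 0.11), and for WT_CAF 2 to 5 with no index term -2.58 ± 0.39 (adjusted p = 9.4e-04). The call was also lost with NPF 2 left out. Rspo1 lay the other way, at 0.807, 1.40 and 4.32 FPKM in NPF and 11.1 to 22.9 in WT_CAF 2 to 5, with 0.232 in WT_CAF 1. Its difference was 0.93 ± 0.98 (adjusted p = 0.67) with all libraries and 2.60 ± 0.53 (adjusted p = 0.0081) for WT_CAF 2 to 5 with no index term.

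For WT_CAF 2 to 5 with no index term, 11 members were called, 10 higher in tumor fibroblasts (Wnt2, Wnt4, Wnt11, Fzd1, Sfrp1, Sfrp2, Dkk3, Sfrp5, Rspo1 and Lgr5) and Rspo3 lower. This setting called 6.81% of all genes tested. Wnt4 stood at 0.501, 2.46 and 2.25 FPKM in NPF, below the 9.91 to 106 of all 5 WT_CAF, and its difference was 2.93 ± 0.77 (adjusted p = 0.093) with all libraries and 4.17 ± 0.73 (adjusted p = 0.0030) in this setting. Fzd1 stood at 8.87, 12.5 and 15.3 FPKM in NPF against 30.7 to 177 in WT_CAF, again with no overlap (2.43 ± 0.71, adjusted p = 0.12, and 3.32 ± 0.50, adjusted p = 9.4e-04). With the index term kept and only WT_CAF 1 left out, Fzd1 (3.57 ± 0.77, adjusted p = 0.041), Sfrp2 (6.15 ± 1.30, adjusted p = 0.039) and Wif1 (4.25 ± 0.52, adjusted p = 0.0018) were called, and 1.41% of all genes. That setting sets WT_CAF 2 alone against NPF and assumes that it varies like the libraries of other groups. Wif1, at 19.6 FPKM in WT_CAF 2 and at 0.499, 0.780 and 1.39 in WT_CAF 3 to 5, was called on the value of 1 library.

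Wnt2 held 0.528, 4.97 and 4.13 FPKM in NPF and 24.2 to 46.4 in WT_CAF 2 to 5, while WT_CAF 1 at 0.489 was below all NPF (0.87 ± 0.93, adjusted p = 0.67, with all libraries, 3.11 ± 0.46, adjusted p = 8.0e-04 for WT_CAF 2 to 5). Sfrp1 stood at 62.5, 15 and 21.3 FPKM in NPF and Sfrp2 at 1.22, 5.72 and 15.6, against 179 to 543 and 32.3 to 446 in WT_CAF 2 to 5. Sfrp1 differed by 1.0 ± 0.86 (adjusted p = 0.59) with all libraries and by 3.50 ± 0.56 (adjusted p = 0.0014) for WT_CAF 2 to 5. Sfrp2 differed by 2.81 ± 1.52 (adjusted p = 0.36) and 4.69 ± 0.88 (adjusted p = 0.0044). Lgr5 was listed at 0 to 0.0527 FPKM in NPF and at 0.875 to 11.2 in WT_CAF (1.15 ± 0.49, adjusted p = 0.26, and 2.42 ± 0.46, adjusted p = 0.0047).

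**Figure D4:**
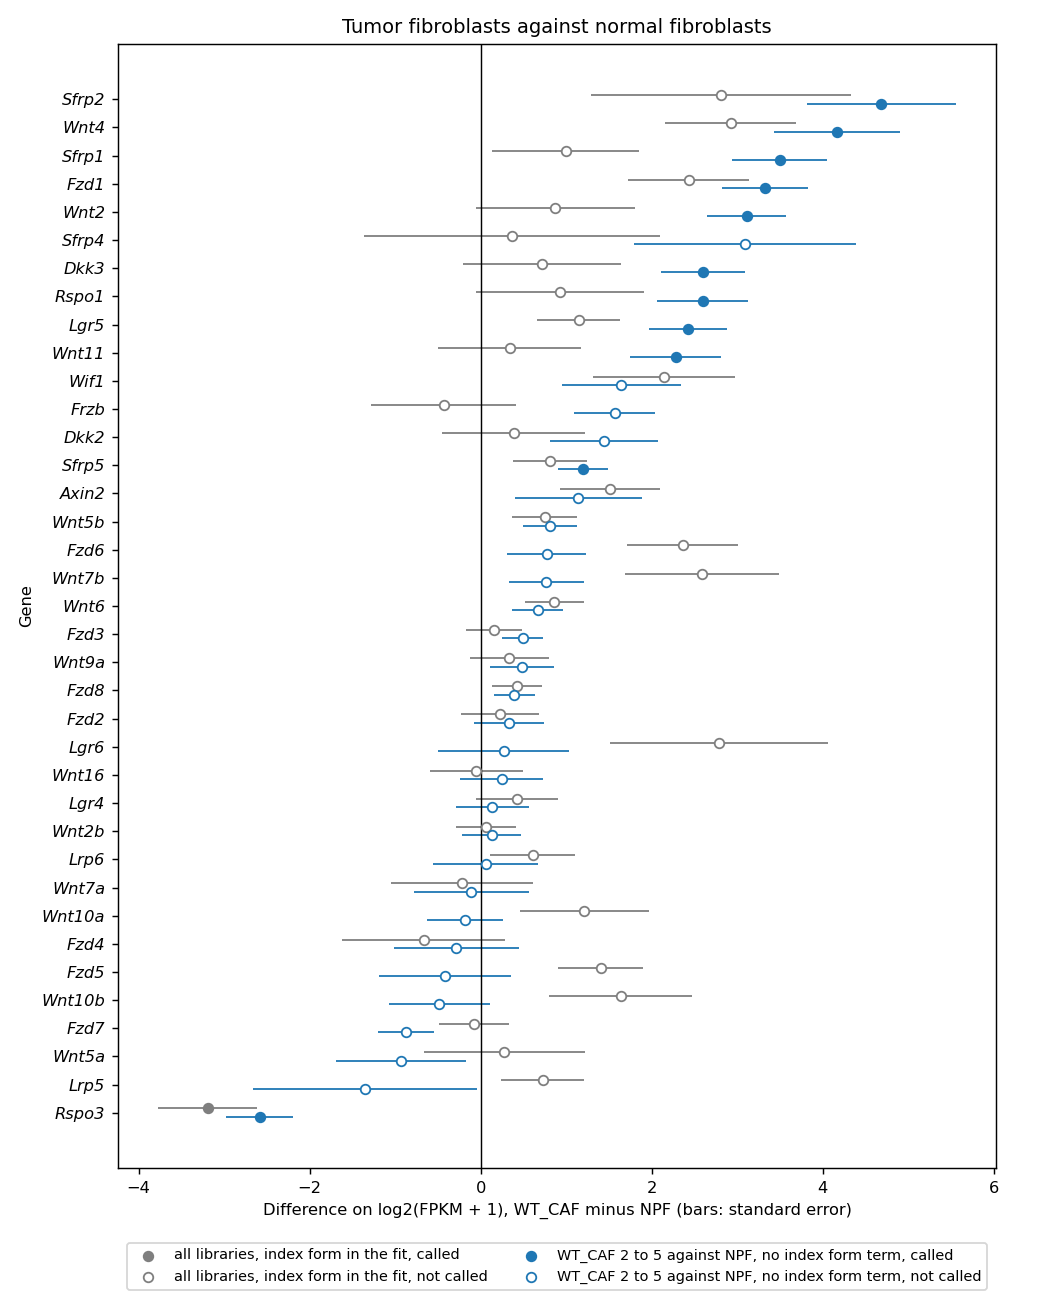
Difference of each tested gene between tumor fibroblasts and normal fibroblasts, on the log2(FPKM + 1) scale with standard errors, from all libraries with the index form in the fit (grey) and from WT_CAF 2 to 5 against NPF with no index term (blue); filled points were called at an adjusted p under 0.05. Rspo3 is the one gene called in both (-3.19 and -2.58), and Lgr6 moves from 2.79 to 0.27.

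Members whose raw groups did not overlap were 5 with all 5 WT_CAF (Wnt4, Wnt7b, Fzd1 and Lgr5 higher, Rspo3 lower), where 11.2% of all genes did not overlap. They were 16 with WT_CAF 2 to 5 (14 higher, 2 lower), where 21.2% of all genes did not overlap. In the 14 were 4 ligands (Wnt2, Wnt4, Wnt7b and Wnt11), 2 Frizzled receptors (Fzd1 and Fzd3), 6 antagonists, Rspo1 and Lgr5, and the 2 lower ones were Fzd7 and Rspo3. Fzd7 stood at 16.5, 17.5 and 12 FPKM in NPF, at 5.17 to 9.86 in WT_CAF 2 to 5 and at 22.9 in WT_CAF 1 (-0.08 ± 0.40, adjusted p = 0.96, with all libraries). Axin2 stood at 0.387, 1.47 and 2.33 FPKM in NPF, overlapping WT_CAF 4 at 0.822 (1.51 ± 0.58, adjusted p = 0.22, with all libraries).

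Lgr6 rested on 1 library. It stood at 0.114, 0.704 and 0.467 FPKM in NPF, at 0.261, 0.874, 0.498 and 1.32 in WT_CAF 2 to 5 and at 73.9 in WT_CAF 1. Its difference of 2.79 ± 1.28 with all libraries changed sign to -0.16 ± 1.01 without WT_CAF 1, and neither was called. Wnt7b, Wnt10a, Fzd5 and Fzd6 also had smaller or negative differences for WT_CAF 2 to 5 with no index term (0.77 ± 0.44, -0.18 ± 0.44, -0.42 ± 0.77 and 0.77 ± 0.46) than with all libraries (2.59 ± 0.90, 1.21 ± 0.76, 1.40 ± 0.50 and 2.36 ± 0.65). Wnt10b and Lrp5 went from 1.64 ± 0.84 and 0.72 ± 0.48 with all libraries to -0.49 ± 0.59 and -1.35 ± 1.31, and Frzb from -0.43 ± 0.84 to 1.57 ± 0.47, without being called.

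The deletion of Saa3 was examined in each cell type. No member was called in fibroblasts (KO_CAF against WT_CAF, where 0.00748% of all genes were called) or in tumor cells (KO_tumor against WT_tumor, where 0.0% were called). At an unadjusted p under 0.05 there was 1 member and 125 genes in fibroblasts, and 1 member and 528 genes in tumor cells. Median differences of the members were 0.15 and -0.10, and those of all genes -0.01 and -0.02. In no member did the knockout libraries lie wholly above or below the intact ones, in either cell type, where 1.2% and 3.61% of all genes did so. KO_CAF against WT_CAF again shares the WT_CAF libraries with the comparisons above.

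The member with the unadjusted p under 0.05 in fibroblasts was Wnt2b, at 4.12, 3.56 and 1.19 FPKM in KO_CAF and 0.166, 1.51, 1.72, 0.0506 and 0.447 in WT_CAF. Its difference was 0.98 ± 0.32 (adjusted p = 1.0), and the ranges overlapped. In tumor cells it was Wnt7a, at 34.1, 32.9 and 44.0 FPKM without Saa3 and 16.7, 7.18, 38.3 and 0.862 with it. Its difference was 1.87 ± 0.69 (adjusted p = 1.0), and WT_tumor 3 lay within the range of KO_tumor. The widest differences otherwise were those of Sfrp2 in fibroblasts (1.11 ± 1.40) and of Sfrp4 in tumor cells (-1.65 ± 1.45). The 95% interval of each held 0.

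Intervals of these knockout effects were wide. The median half-width of the 95% interval over the 37 members was 1.40 on the log2 scale in fibroblasts and 1.27 in tumor cells, and the interval lay wholly within 1 of 0 for 3 and 8 members. For the other members the interval reached past 1, so a difference that was not called is not shown to be absent. In fibroblasts these sizes rest on WT_CAF 3 to 5, for the same reason as above, and no member was called with WT_CAF 1 left out. The test of the knockout effect in tumor cells minus that in fibroblasts called no member and no gene (1 member, Wnt2b, and 185 genes at an unadjusted p under 0.05).

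The index form itself moved with 4 members, over the 4 groups that hold both forms. With 16 against 6 bases, none of the 37 members was called higher and 4 were called lower (10.8%), where 6.66% and 11.2% of all genes were called (17.8% in either direction). Lrp5 stood at 0.169 to 1.95 FPKM in all 5 libraries with a 16-base index, at 9.31 to 62.3 in the 8 with a 6-base index and at 5.13 to 21.4 in the 5 without one. The difference was -3.71 ± 0.32 (adjusted p = 2.1e-06). Fzd5, with a difference of -1.88 ± 0.33 (adjusted p = 0.0012), was at 0.369 to 0.624 FPKM in the 16-base libraries and at 1.56 to 17.5 in the 6-base libraries. Axin2 differed by -1.71 ± 0.38 (adjusted p = 0.0067) and Lrp6 by -1.26 ± 0.33 (adjusted p = 0.016). The other 33 tested members were not called. For Lrp5, Fzd5 and Lrp6 the libraries with 16 and with 6 bases did not overlap, as for 9.87% of all genes.

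**Figure D5:**
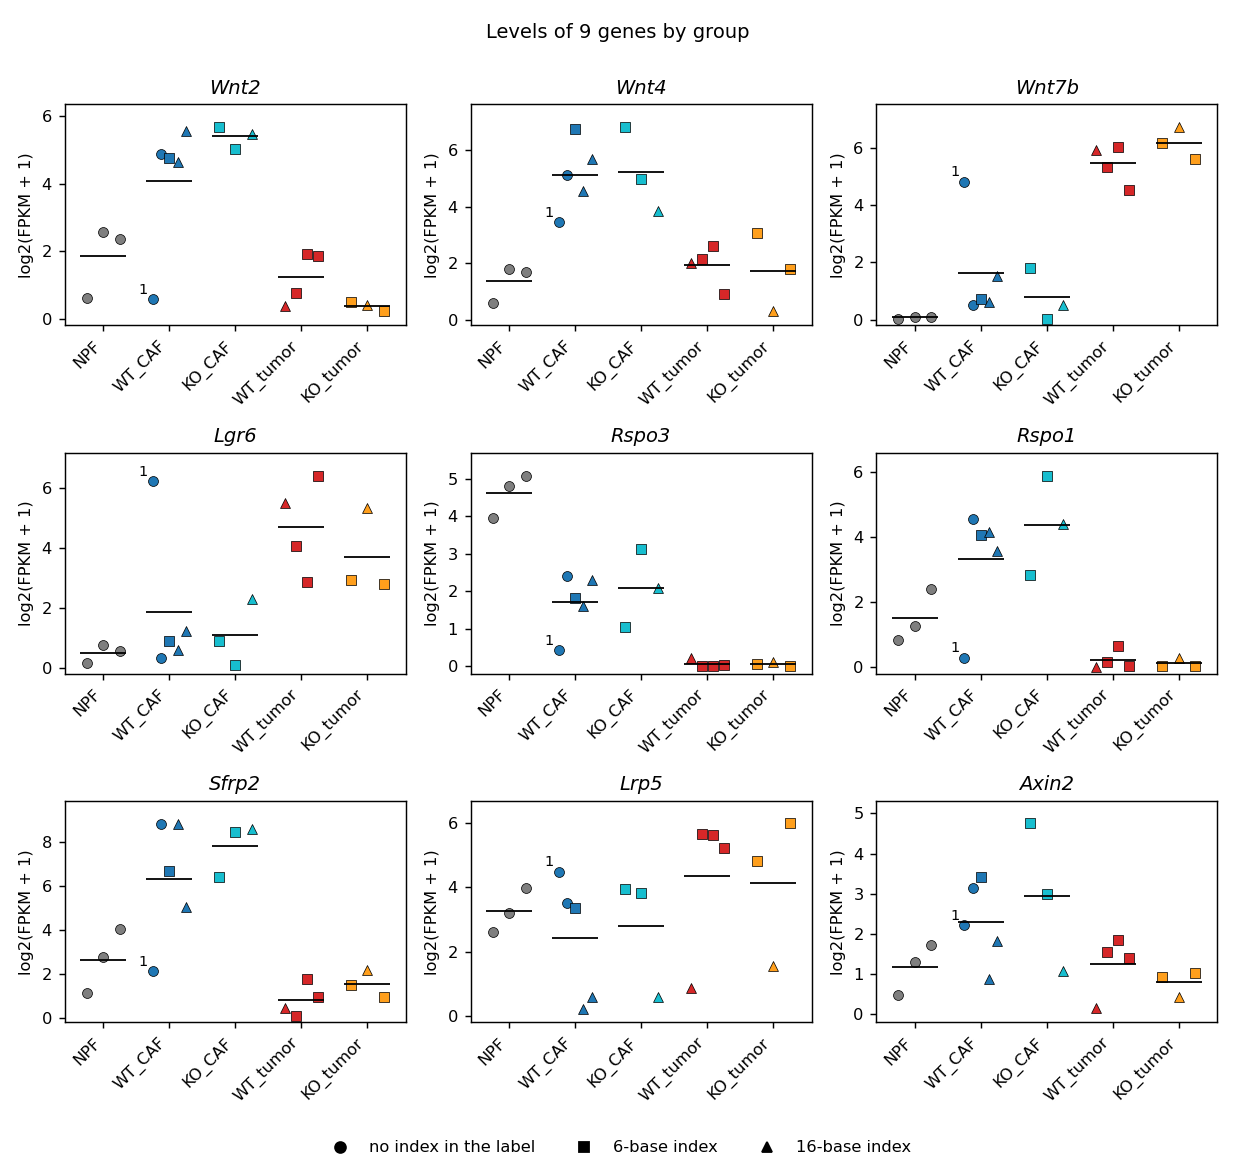
Levels of 9 genes as log2(FPKM + 1) in the 5 groups; points are libraries, with a shape for each index form, bars mark the mean of a group and WT_CAF 1 is numbered. Lrp5 is below 2 FPKM in all 5 libraries with a 16-base index, and Rspo3 falls from 14.4 to 33.0 FPKM in NPF to 0.342 to 4.37 in WT_CAF.

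Genes around the members were followed in 4 lists of the pathway, where the share of all genes called in either direction was 21.5% with Saa3 intact and 28.4% without it. Of 6 tested genes of Wnt secretion and extracellular processing, 1 was called higher in tumor cells and 5 lower with Saa3 intact, and 1 and 4 without Saa3 (6 and 5 of 6 called). The higher one was Porcn, the enzyme that attaches the lipid to Wnt proteins, at 44.9, 75.9, 109 and 16.8 FPKM in WT_tumor and 42.7, 15, 13.4, 11.1 and 17.2 in WT_CAF (1.70 ± 0.56, adjusted p = 0.043, and 3.15 ± 0.56, adjusted p = 0.0015). Wls, the carrier that brings Wnts to the cell surface, lay lower in tumor cells, at 50.9, 52.9, 20.5 and 59.7 FPKM against 67.9, 170.2, 90.2, 135 and 182 (-1.30 ± 0.44, adjusted p = 0.048, and -1.75 ± 0.44, adjusted p = 0.011). Sulf1, a sulfatase of heparan sulfate, stood at 6.39, 0.735, 5.36 and 1.84 FPKM in WT_tumor and 4.69, 73.1, 71.8, 64.6 and 110.4 in WT_CAF (-4.17 ± 0.70, adjusted p = 0.0015, and -4.54 ± 0.71, adjusted p = 7.8e-04). The others called lower were Trabd2b and Sulf2 in both comparisons (-2.43 ± 0.62 and -2.23 ± 0.69 with Saa3 intact) and Notum, which removes the lipid again, with Saa3 intact only (-2.09 ± 0.65 (adjusted p = 0.035), against -1.14 ± 0.66 (adjusted p = 0.21) without Saa3). The list's median difference was -2.16 with Saa3 intact and -2.10 without it.

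Of 15 tested genes among other Wnt receptors, co-receptors and their turnover, 1 was called higher and 8 lower with Saa3 intact, and 4 and 8 without it, or 9 and 12 of 15 called, against 21.5% and 28.4% of all genes, with median differences of -1.25 and -1.17. Rnf43, a ubiquitin ligase that removes Frizzled receptors and that R-spondins counteract, was higher in tumor cells (1.68 ± 0.50, adjusted p = 0.029, and 2.02 ± 0.51, adjusted p = 0.010). It stood at 1.53, 6.28, 6.32 and 1.68 FPKM in WT_tumor and at 0.0834 to 0.162 in WT_CAF 2 to 5, while WT_CAF 1 at 2.22 was above 2 of the 4 WT_tumor libraries. Among the lower ones were Ror1 and Ror2, receptors for Wnt5a (-2.82 ± 0.75 and -1.31 ± 0.34 with Saa3 intact), and Prickle1 of planar cell polarity (-3.30 ± 0.51). The others called lower in both were Gpr124 and Reck, which serve Wnt7a and Wnt7b at the cell surface (-3.09 ± 0.62 and -3.05 ± 0.61), with Ryk, Prickle2 and Kremen1 (-1.89 ± 0.33, -1.97 ± 0.44 and -1.25 ± 0.33). Vangl2, Celsr1 and Celsr2 of planar cell polarity were called higher without Saa3 (0.81 ± 0.27, 2.13 ± 0.63 and 1.10 ± 0.25).

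Of 27 tested cytoplasmic and nuclear pathway genes, 2 were called higher and 4 lower with Saa3 intact, and 5 and 2 without it, with medians of 0.26 and 0.07. That is 22.2% and 25.9% of the list, near the 21.5% and 28.4% of all genes called. Pygo1, a co-activator of beta-catenin, was lower in tumor cells in both (-2.19 ± 0.32, adjusted p = 7.8e-04, and -2.42 ± 0.33, adjusted p = 3.4e-04), as was Tcf7l1, a TCF factor (-2.47 ± 0.54, adjusted p = 0.0062, and -2.48 ± 0.55, adjusted p = 0.0053). Tle4 and Dvl1 were called higher in both (1.48 ± 0.29 and 0.91 ± 0.30 with Saa3 intact), and Csnk1e, Ctnnb1 and Tcf7 without Saa3 (1.09 ± 0.28, 1.12 ± 0.31 and 1.53 ± 0.41). Csnk1a1 and Ctnnbip1 were called lower with Saa3 intact (-0.77 ± 0.22 and -0.68 ± 0.21).

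Of 18 tested genes in common use as Wnt targets, 5 were called higher and 8 lower with Saa3 intact, and 5 and 7 without it, or 72.2% and 66.7% called against 21.5% and 28.4% of all genes, with medians of -1.14 and -0.74. This list holds Axin2 and Lgr5 and shares other genes with the lists above. Its members did not move one way: Nkd1, a feedback inhibitor, and Wisp1 were lower in tumor cells (-3.85 ± 0.63, adjusted p = 0.0013, and -2.92 ± 0.56, adjusted p = 0.0030), and Ccnd1, Cd44 and Sox9, which other pathways also induce, were higher (4.57 ± 1.0, 2.15 ± 0.48 and 3.05 ± 0.47). These 5 were called the same way without Saa3 (-3.51 ± 0.64, -3.87 ± 0.57, 4.90 ± 1.02, 2.2 ± 0.48 and 2.10 ± 0.48). Nkd2, Wisp2 and Tnfrsf19 were called lower in both (-3.45 ± 0.73, -3.90 ± 0.83 and -3.93 ± 0.93 with Saa3 intact), Sp5 higher with Saa3 intact (1.31 ± 0.38) and Apcdd1 lower without Saa3 (-1.94 ± 0.51).

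Against NPF with the index term, Tcf7, a TCF factor, was the one gene of the 4 lists called in tumor fibroblasts. It stood at 0.199, 0.434 and 0.215 FPKM in NPF against 6.54, 3.39, 4.80, 2.21 and 4.32 in WT_CAF (2.17 ± 0.46, adjusted p = 0.042). This size rests on WT_CAF 1, the highest of them, and WT_CAF 2. For these lists the setting of WT_CAF 2 to 5 with no index term is not given. Ccnd1, which was not called, stood at 129, 137 and 73.5 FPKM in NPF and 161 in WT_CAF 1. In WT_CAF 2 to 5 it stood at 0.616 to 2.68. No gene of the 4 lists was called for the deletion of Saa3 in either cell type. None was called for the difference between the comparisons with and without Saa3 either. List genes called only with or only without Saa3 are therefore not read as depending on it. Between index forms, 7 of the 27 cytoplasmic and nuclear genes were called (25.9%, against 17.8% of all genes), 6 lower with 16 bases (Gsk3a, Gsk3b, Ctnnb1, Bcl9, Bcl9l and Tle3) and Btrc higher, and of the receptors Gpr124 was lower. Ctnnb1, which encodes beta-catenin, differed by -0.76 ± 0.23 (adjusted p = 0.030), and Bcl9l, its co-activator, by -2.49 ± 0.27 (adjusted p = 1.6e-05).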

How the data were processed

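The authors deposited FPKM values per gene for 18 libraries. Per the labels' protocols, poly(A) RNA of freshly sorted cells was made into libraries with an Illumina TruSeq kit, and the submitters' processing notes name Cuffnorm, Cufflinks 2.2.1, TopHat2 2.0.10, Bowtie 1.0.0, and SAMtools 0.1.19, with the builds mm9, GRCh37 and hg19 in no stated role. The sources used here give no settings or annotation. The FPKM of a library summed to 396646 to 919859, 10657 to 11670 genes reached 1 FPKM, and the fragment depth behind them is unknown.

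From the FPKM, limma 3.58.1 (R 4.3.3, empirical Bayes with a mean trend, two-sided, Benjamini-Hochberg over 13369 genes) was run on log2(FPKM + 1) with all 18 libraries in 1 fit, group and index form as terms and 11 residual degrees of freedom. A pseudocount of 1 understates differences of low genes. The fit was tested on simulated data. Replicates are biological per the series' design text, and their numbers follow deposit order. Genes were given per-library values if called in 1 of the 6 comparisons or at a mean of 5 FPKM or more in a group. Promoters on chromosome 18 were left out. The members and lists were chosen with earlier results of these data known. Alternatives covered the pseudocount, filter, scaling, index term, index form and each library left out. Some items of the labels are not reported here.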

Additional observations from a re-analysis of the deposited data

Results flagged for a closer look

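In groups of 4 or 5 libraries, a value was singled out where its gap to the nearest other library, divided by the range of its group, passed Dixon's 95% critical value. Of 64 groups of values examined, 11 held such a library. The groups are different genes in the same WT_CAF and WT_tumor libraries. They are not independent, so this count cannot be set against a rate by chance. WT_CAF 1 held 6 of them: Wnt2 at 0.489 FPKM and Dkk3 at 5.68 below the other WT_CAF, Rspo1 at 0.232 below them too, and Wnt7b at 27.0, Wnt10a at 8.06 and Lgr6 at 73.9 above them. In WT_CAF 4, Wnt16 stood at 1.17 FPKM, above the other WT_CAF. In WT_tumor 3, the tumor cell library with the highest sum of fibroblast markers, Fzd1 stood at 22.8 FPKM above the others. In WT_tumor 1, the one WT_tumor library with a 16-base index, Lrp5 stood at 0.821 FPKM below the others, and Rspo3 at 0.174 and Lgr5 at 2.49 above them.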

How the results depend on the processing

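Each comparison was recomputed under the alternatives whose libraries hold its groups, and the 3 comparisons of the deletion, which the libraries without an index cannot give, called no member in any setting run for them. For tumor fibroblasts against normal ones, 1 member was called with the index term; 4 were called without the index term, 0 within the libraries that lack an index, 2 with a pseudocount of 0.1, 0 with only the compared groups in the fit, 0 with array weights, whose fit stopped before it converged, and 11 with WT_CAF 1 left out and no index term. Leaving out each library in turn gave 0 (without NPF 2) to 6 (without WT_CAF 2, where WT_CAF 1 alone is set against NPF). Chosen after seeing the data, leaving out WT_CAF 1 with WT_tumor 4 gave 4, and leaving out WT_CAF 1 with WT_tumor 3 gave 3. For tumor cells against fibroblasts with Saa3 intact, 22 were called, against 7 with only the compared groups in the fit, 0 within the 16-base libraries, which leave 1 residual degree of freedom, and 11 (without WT_CAF 3) to 24 (without WT_CAF 1 or WT_CAF 2) with 1 library left out. Without Saa3, 24 were called, against 0 within the 16-base libraries and 19 (without KO_CAF 3) to 28 (without WT_CAF 1 or WT_CAF 2). Against NPF, the difference of Lgr6 ranged from -0.16 (without WT_CAF 1) to 5.73 (without WT_CAF 2) with 1 library left out, and was -0.16 with WT_CAF 1 left out together with WT_tumor 4 or WT_tumor 3, and that of Fzd5 was -0.42 with WT_CAF 1 left out and no index term. The cause was not tested. The share of all genes called moved with the setting too. Against NPF it was 0.95% in the main fit and 6.81% with WT_CAF 1 left out and no index term. For tumor cells against fibroblasts with Saa3 intact it was 21.5%, and 26.6% without WT_CAF 1. Shifts of the member counts between settings are therefore not read as results about the members. No paired analysis was possible because the labels carry no replicate numbers. The setting for failed estimates was not run, since no member had one.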
